A study of Mus musculus with 8 samples.

Results

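The genes described here are the 9 members of the insulin-like growth factor (IGF) system, out of 17823 genes in the deposited table: the ligand Igf1, the receptors Igf1r and Igf2r, and the binding proteins Igfbp2, Igfbp3, Igfbp4, Igfbp5, Igfbp6 and Igfbp7. They were taken by symbol, and all 9 were found. Macrophages were raised for 7 days from the marrow of C57BL/6 mice, with 20 ng of recombinant M-CSF, and were given bacterial lipopolysaccharide (LPS) at 1 µg/ml. The libraries were made from cells that were positive (4 libraries) or negative (4 libraries) for tdT, the tdTomato reporter of the cytokine gene Il19, and both groups share strain, culture and LPS. No group was without LPS, and the sources used here give neither the age of the mice nor the way in which the positive cells were set apart. The libraries are numbered 1 to 4 in both groups and called biological replicates, with nothing said of which mouse or culture each came from, so a p-value here speaks of the spread between these samples only.

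IGF1 is a secreted growth factor made in the liver under growth hormone and also locally in tissues, where macrophages are a known source during repair. It signals through the tyrosine kinase receptor IGF1R, while IGF2R, the cation-independent mannose 6-phosphate receptor, carries lysosomal enzymes and clears IGF2 without a kinase of its own. The binding proteins IGFBP2 to IGFBP6 hold IGFs in the extracellular fluid until proteases release them, and IGFBP7 is a related secreted protein of the matrix and vessel wall with low affinity for IGFs. Several binding proteins are abundant in fibroblasts, smooth muscle, bone and endothelium.

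The start regions of 4 binding protein genes are shown, because these genes lie along the whole range of behaviour described below, from near-equal levels in both groups to strong differences. Each line gives the 100 bases before the RefSeq start site (GRCm38.p6), 5′ to 3′ on the strand of the gene. Capitals mark a TATA-like element, for which both strands were searched with 3 forms: the common TATAAA, the variant TATATA and the longer TATTTAAA. The windows lie at chr11:99041144-99041243 (plus strand) for Igfbp4, chr5:77408046-77408145 (minus strand) for Igfbp7, chr1:72874866-72874965 (minus strand) for Igfbp5 and chr11:7213924-7214023 (minus strand) for Igfbp3.
Igfbp4: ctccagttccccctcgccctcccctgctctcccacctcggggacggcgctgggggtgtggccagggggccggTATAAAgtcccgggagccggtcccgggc
Igfbp7: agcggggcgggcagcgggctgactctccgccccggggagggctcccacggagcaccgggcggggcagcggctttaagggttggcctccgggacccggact
Igfbp5: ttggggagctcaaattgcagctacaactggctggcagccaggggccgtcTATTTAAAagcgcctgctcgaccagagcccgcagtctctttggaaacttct
Igfbp3: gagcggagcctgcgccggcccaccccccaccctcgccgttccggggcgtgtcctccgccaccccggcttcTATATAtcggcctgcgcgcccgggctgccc
The element began 28 bases before the start in Igfbp4, 51 in Igfbp5 and 30 in Igfbp3, and none of the 3 forms was in the Igfbp7 window. For Igfbp5 the distance depends on the start site used, since the gene position given below ends at 72874884, inside the window shown. The windows of Igf1, Igf1r, Igf2r, Igfbp6 and both start sites of Igfbp2, which are not shown, held none of the 3 forms either. The 4 genes shown were picked with their levels known. Of 32851 windows of the same length in the RefSeq table, 7.58% held at least 1 of the 3 forms. The GC box GGGCGG, searched on both strands, was found in the windows of Igfbp7, Igf1r, Igf2r and 1 of the 2 start sites of Igfbp2, and in 24.7% of all windows. A match of these letters is a description of the window and does not measure use of the site.

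The 8 libraries held between 49850537 and 58516454 counts over genes, so that a count of 3 was worth 0.0490 to 0.0696 CPM (counts-per-million, with library sizes scaled by trimmed mean of M values). Il19 itself averaged 185 ± 36.6 CPM over tdT-positive and 12.0 ± 3.45 CPM over tdT-negative libraries (SD, n = 4 each). Macrophage markers were abundant in every library: the 12 genes of the list summed to 15390 to 19851 CPM in tdT-positive and 12906 to 22881 CPM in tdT-negative libraries. The 15 fibroblast and mural cell markers summed to 69.1 to 173 CPM in tdT-positive and 294 to 2620 CPM in tdT-negative libraries, with the highest value in tdT-negative replicate 4. That library also had the highest sum of 8 osteoclast markers, 1401 CPM, against 60.1 to 114 CPM in the tdT-positive and 80.2 to 158 CPM in tdT-negative replicates 1 to 3. tdT-positive replicate 3 held 141822 CPM of Rn45s, a ribosomal RNA precursor, against at most 7467 CPM in any other library. In bulk samples fewer cells of a type and less RNA per cell cannot be told apart.

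Levels, read per kilobase of the deposited gene length so that genes can be compared, separated the members into an abundant and a scarce set. In tdT-positive libraries Igf2r was highest at 37.8 ± 7.49 CPM per kilobase, followed by Igfbp4 at 16.8 ± 3.20, Igf1 at 12.3 ± 1.79 and Igfbp7 at 8.75 ± 3.22. Igfbp5 (0.373 ± 0.275), Igf1r (0.249 ± 0.0440), Igfbp6 (0.130 ± 0.0669) and Igfbp3 (0.0106 ± 0.0136) followed, and Igfbp2 had no count (SD, n = 4). The ranges of Igfbp4 and Igf1, of Igf1 and Igfbp7, of Igfbp5 and Igf1r, and of Igf1r and Igfbp6 overlapped, so the order within these pairs is not fixed by the data. In tdT-negative libraries the order at the top was Igf2r (34.9 ± 2.74), Igfbp4 (19.6 ± 3.19), Igfbp7 (19.0 ± 13.7) and Igf1 (12.3 ± 1.52), and the range of Igfbp7 covered those of Igfbp4, Igf1 and Igf2r. Igfbp5 stood next at 5.93 ± 10.5 CPM per kilobase, a mean carried by tdT-negative replicate 4.

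Of the 9 members, 6 passed the filter on low counts, and Igfbp2, Igfbp3 and Igfbp6 did not. Without the replicate number in the model, none of the 6 passed an adjusted p under 0.05 (edgeR quasi-likelihood test, Benjamini-Hochberg over all genes), 2 had an unadjusted p under 0.05, both lower, against 16.3% of all genes. Neither DESeq2 nor limma voom called any, but DESeq2 gave Igfbp5 no adjusted p. In the edgeR fit 0.0238% of the 12610 genes tested were called, 0.00793% higher and 0.0159% lower. Libraries of the same number varied together, so the fit with the number as a block is given beside it. There Igf1r and Igfbp7 fell and 4 members did not pass, against 7.81% of all genes called lower and 15.8% called in either direction. The median log2 fold change, tdT positive over tdT negative, was -0.55 over the 6 members and 0.01 over all genes tested in the blocked fit. Scaling by library totals in that fit called 422 genes higher and 996 lower, in place of 1013 and 985.

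**Figure D1:**
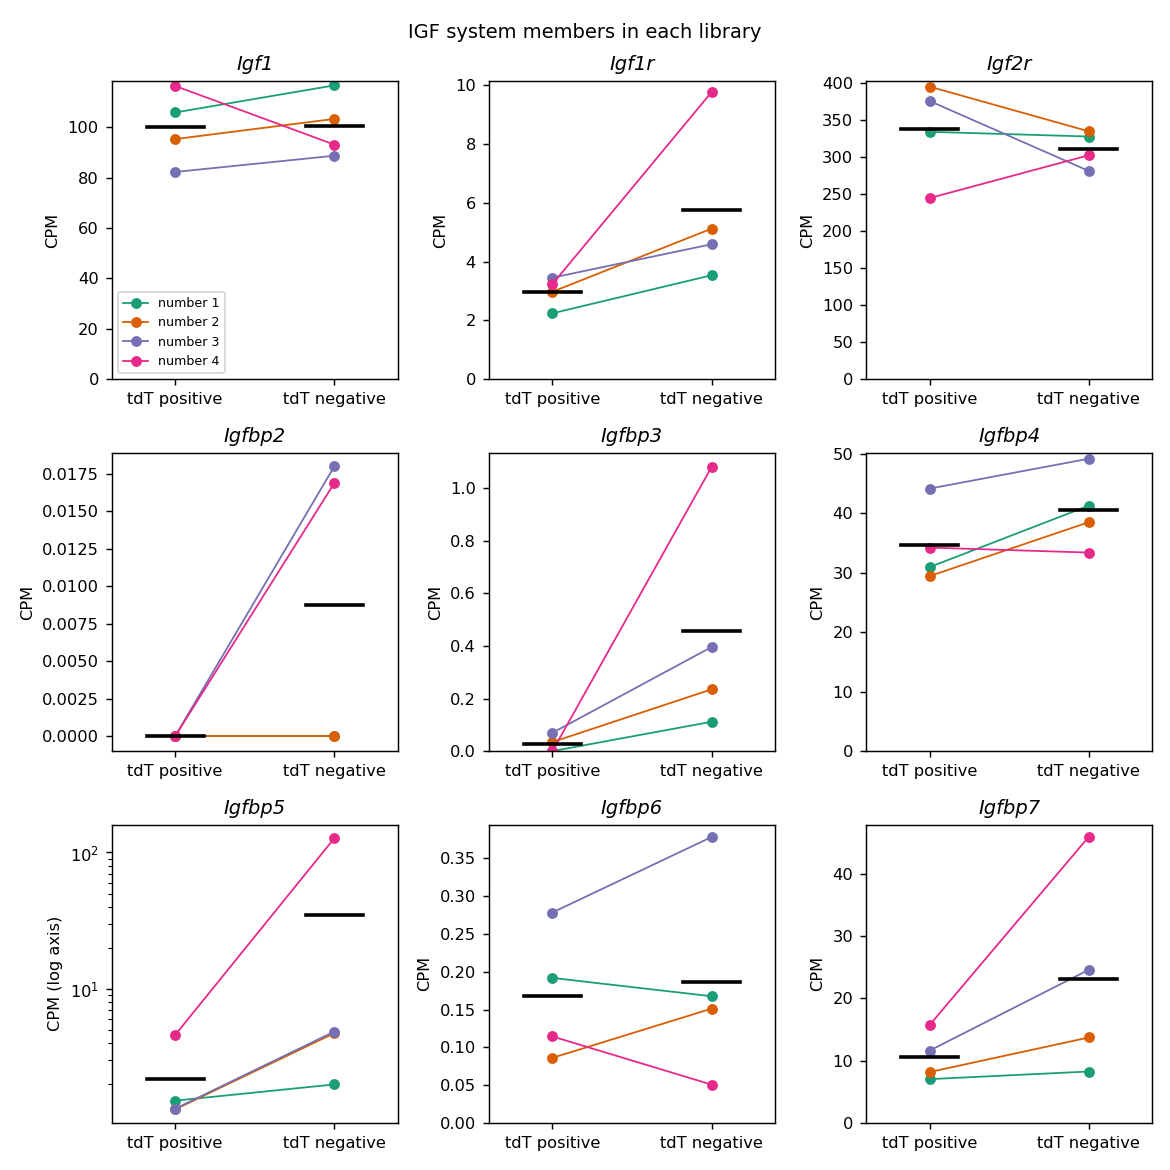
CPM of each of the 9 members in tdT-positive (left) and tdT-negative (right) libraries, with thin lines joining libraries of the same replicate number and black bars at the group mean; the axis of Igfbp5 is logarithmic. Igf1, Igf2r and Igfbp4 overlapped between the groups, whereas all 4 tdT-positive libraries lay below the tdT-negative ones for Igf1r and Igfbp3, and tdT-negative replicate 4 was the highest library for Igf1r, Igfbp3, Igfbp5 and Igfbp7.

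Igf1, the ligand (Entrez 16000, chromosome 10, 87858265 to 87937042, plus strand, GRCm38), was abundant, and no difference between the groups was detected. tdT-positive libraries 1 to 4 held 106, 95.3, 82.2 and 116 CPM of it, against 117, 103, 88.7 and 93.1 CPM in tdT-negative libraries 1 to 4. The groups overlapped throughout, the lowest library of each group being replicate 3. The log2 fold change was -0.01 (95% interval -0.30 to 0.29, edgeR quasi-likelihood adjusted p = 0.988), and with the block it was -0.01 with an interval of -0.22 to 0.20, which allows a fold between 0.860 and 1.15. The sign of so small a value changed between settings. The other IGF ligand, Igf2, had a total of 1 count in the tdT-positive and 9 in the tdT-negative group. The insulin genes Ins1 and Ins2 and the binding protein gene Igfbp1 were not found by symbol in the deposited table.

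Igf2r, the sorting and clearance receptor (Entrez 16004, chromosome 17, 12682406 to 12769664, minus strand), was the most abundant member. tdT-positive libraries 1 to 4 held 334, 395, 376 and 245 CPM of it, against 328, 335, 281 and 303 CPM in tdT-negative libraries 1 to 4. tdT-positive replicate 4 was the lowest of the 8 libraries and replicates 2 and 3 of that group the highest, so the groups overlapped. Its log2 fold change was 0.11 (95% interval -0.24 to 0.47, adjusted p = 0.787), and 0.09 with the block (adjusted p = 0.611), with a higher tdT-positive value in 3 of 4 numbers. With the block and without number 4 it was 0.24 (95% interval 0.05 to 0.43), and the edgeR adjusted p of 0.0758 did not pass. The antisense gene Airn overlaps 28354 bases of Igf2r on the opposite strand, and no source used here states whether counting used strand. Airn had 1.23% to 2.14% as many counts as Igf2r, and reads of the shared stretch cannot be told apart without that setting.

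Igf1r, the signalling receptor (Entrez 16001, chromosome 7, 67952827 to 68233668, plus strand), was scarce, and lower in the tdT-positive libraries. tdT-positive libraries 1 to 4 held 2.24, 2.98, 3.46 and 3.24 CPM of it, against 3.54, 5.12, 4.59 and 9.76 CPM in tdT-negative libraries 1 to 4. These rest on 117 to 198 deposited counts per tdT-positive and 190 to 578 per tdT-negative library. The groups did not overlap, although tdT-positive replicate 3 and tdT-negative replicate 1 were nearly equal, and of all genes tested 5.92% were lower and 5.46% higher without overlap. The log2 fold change was -0.95 (SE 0.31, adjusted p = 0.180), or -0.57 without tdT-negative replicate 4, and Igf1r fell by 0.87 with the block (SE 0.20, edgeR adjusted p = 0.0293), in 4 of 4 numbers. The blocked call was lost without number 1 (adjusted p = 0.0720), number 2 (0.129) or number 3 (0.0648) and kept without number 4, where the log2 fold change was -0.61 (adjusted p = 0.0144). The insulin receptor gene Insr, whose product forms hybrids with IGF1R, was more abundant, with a mean of 30.2 ± 3.14 CPM over tdT-positive and 25.9 ± 4.94 CPM over tdT-negative libraries (SD, n = 4), and did not pass (edgeR blocked adjusted p = 0.105).

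Igfbp4, a binding protein known mainly as an inhibitor of IGF action (Entrez 16010, chromosome 11, 99041244 to 99054392, plus strand), was the most abundant of its family per kilobase. tdT-positive libraries 1 to 4 held 30.9, 29.4, 44.1 and 34.2 CPM of it, against 41.3, 38.5, 49.2 and 33.4 CPM in tdT-negative libraries 1 to 4. Replicate 3 was the highest library of both groups, and the groups overlapped. Its log2 fold change, tdT positive over tdT negative, was -0.23 (95% interval -0.58 to 0.13, adjusted p = 0.543) and the same with the block (adjusted p = 0.118), which narrowed the interval to -0.44 to -0.02. Without number 4 the blocked value was -0.31 and passed (edgeR adjusted p = 0.0235), and it also passed when libraries were scaled by totals (adjusted p = 0.0433).

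Igfbp7 (Entrez 29817, chromosome 5, 77349240 to 77408041, minus strand) was present in every library and lower in the tdT-positive one of each number. tdT-positive libraries 1 to 4 held 7.02, 8.16, 11.6 and 15.7 CPM of it, against 8.25, 13.7, 24.6 and 45.9 CPM in tdT-negative libraries 1 to 4. The groups overlapped, with tdT-positive replicate 4 above 2 tdT-negative libraries, but replicate 4 was the highest and replicate 1 the lowest in both groups. The tdT-negative level was 1.17, 1.68, 2.12 and 2.92 times the tdT-positive one in numbers 1 to 4. On the log2 scale the difference was -1.12 (SE 0.50, adjusted p = 0.308), or -0.55 without tdT-negative replicate 4, and Igfbp7 fell by 0.92 with the block (SE 0.19, edgeR adjusted p = 0.0222). It no longer passed without number 2 (adjusted p = 0.101) or number 3 (0.107), and held without number 1 (0.0244) or number 4, with a log2 fold change of -0.70 in the last case (adjusted p = 0.0114).

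Igfbp5, a binding protein that adheres to matrix and is abundant in bone and muscle (Entrez 16011, chromosome 1, 72857932 to 72874884, minus strand), differed most among the 6 members tested and was dominated by a single library. tdT-positive libraries 1 to 4 held 1.52, 1.31, 1.32 and 4.59 CPM of it, against 1.99, 4.74, 4.86 and 127 CPM in tdT-negative libraries 1 to 4. The deposited count was 7534 in tdT-negative replicate 4 and at most 282 in any other library. tdT-positive replicate 4 was also the highest of its group, and lay above tdT-negative replicate 1, so the groups overlapped. The log2 fold change was -3.98 (SE 1.36, adjusted p = 0.196), or -0.83 without tdT-negative replicate 4 (adjusted p = 0.456). With the block it was -2.48 (SE 0.69, edgeR adjusted p = 0.0516) and did not pass; without number 4 it was -1.39 and passed (SE 0.27, adjusted p = 0.00979), as it did without number 1, at -3.07 (adjusted p = 0.0456). The blocked fits of DESeq2 (adjusted p = 0.0369) and limma voom (adjusted p = 0.0118) called it with all libraries. The tdT-positive value was the lower one in 4 of 4 numbers.

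Igfbp3, the main carrier of IGFs in serum (Entrez 16009, chromosome 11, 7206086 to 7213923, minus strand), was nearly absent from the tdT-positive libraries. tdT-positive libraries 1 to 4 held 0, 2, 3 and 0 counts, against 6, 14, 22 and 64 counts in tdT-negative libraries 1 to 4, or 0 to 0.0696 CPM against 0.112 to 1.08 CPM. The groups did not overlap. The summed counts of 5 and 106 give a level 20.0-fold lower in the tdT-positive group, with an exact 95% interval of 8.29 to 62.7 that covers counting error only. Of the 106 counts 64 came from tdT-negative replicate 4, and without that library the level was 10.7-fold lower (4.23 to 34.6). Igfbp3 missed the filter; with no filter its blocked log2 fold change was -4.00 (edgeR adjusted p = 0.00812), and -4.11 without the block (adjusted p = 0.0798). These fitted values depend on how counts of 0 are treated.

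Igfbp6, which prefers IGF2 (Entrez 16012, chromosome 15), and Igfbp2 (Entrez 16008, chromosome 1) were close to the detection floor. tdT-positive libraries 1 to 4 held 10, 5, 12 and 7 counts of Igfbp6, against 9, 9, 21 and 3 counts in tdT-negative libraries 1 to 4. The ratio of the summed counts, tdT positive over tdT negative, was 0.860, with an exact 95% interval of 0.531 to 1.38 that covers counting error only, and the groups overlapped. tdT-negative replicate 4, the richest library in Igfbp3, Igfbp5 and Igfbp7, had the fewest counts of Igfbp6. Igfbp2 had 0 counts in the whole tdT-positive group and 2 in the tdT-negative group, which is below the floor of 3 counts over a group.

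**Figure D2:**
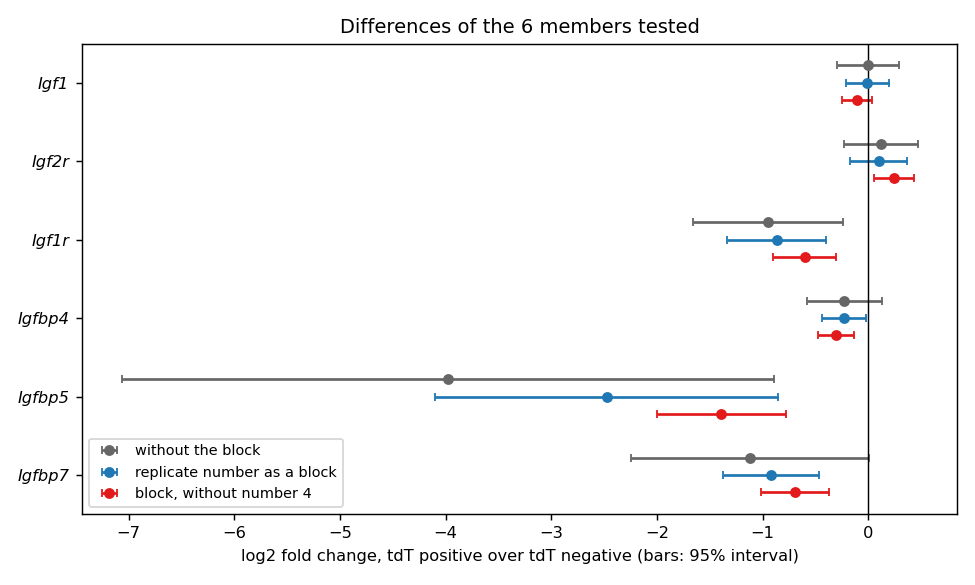
Log2 fold change, tdT positive over tdT negative, of the 6 members tested, with 95% intervals, in the fit without the block, with the replicate number as a block, and with the block and without number 4. The intervals of Igf1 include 0 in all 3 fits, and that of Igf2r lies above 0 only without number 4. Those of Igf1r and Igfbp5 lie below 0 in all 3. The intervals of Igfbp4 and Igfbp7 include 0 without the block and lie below 0 in both blocked fits. Igfbp5 is at -3.98, -2.48 and -1.39.

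The members were then set beside markers of the cell types that the cultures could hold. Within each replicate number the median difference of the 14 fibroblast and mural markers tested was -1.72, -1.88, -3.39 and -4.45 on the log2 scale in numbers 1 to 4, while that of the 12 macrophage markers was -0.01, -0.07, 0.05 and 0.42. Igf1 stayed between -0.14 and 0.32, Igf2r between -0.31 and 0.42, and Igfbp4 between -0.42 and 0.04. Igf1r was at -0.65, -0.78, -0.41 and -1.58 and Igfbp7 at -0.23, -0.75, -1.08 and -1.55, between these 2 medians in every number. Igfbp5 was at -0.39, -1.83, -1.85 and -4.78, close to the fibroblast and mural markers in numbers 2 and 4. The median of the 7 osteoclast markers tested was -0.58, -2.26, -1.23 and -4.13, nearer to Igfbp5 than the fibroblast and mural one in numbers 1 and 3. That of the 3 osteoblast and marrow stroma markers tested was -0.18, -0.81, -0.65 and -2.04. Igfbp5 was thus not set apart as following 1 of these lists. No such difference is given for Igfbp3, whose size would be set by the prior count, since tdT-positive libraries 1 and 4 had 0 counts.

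**Figure D3:**
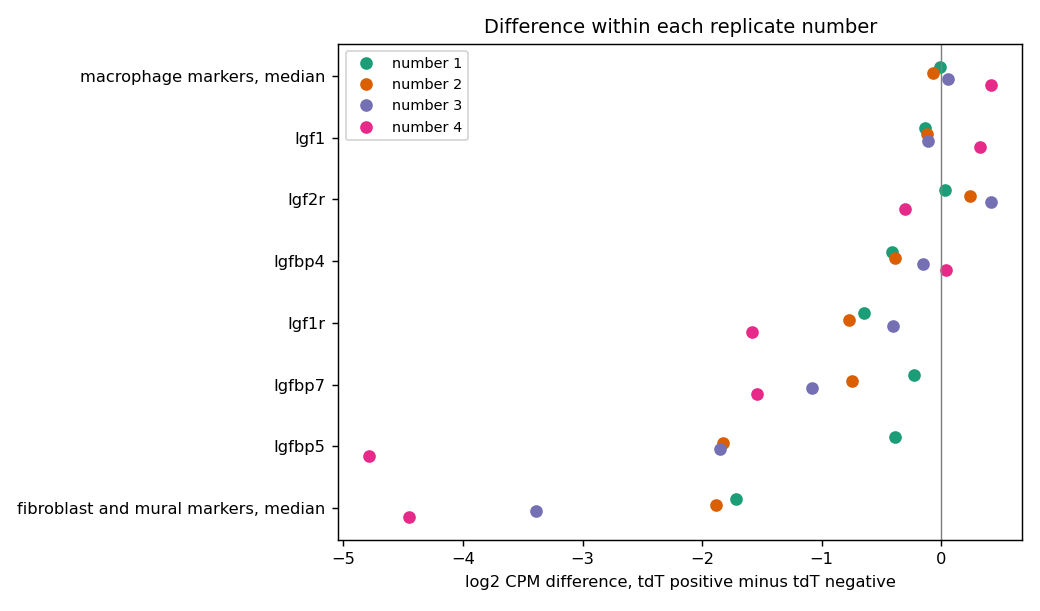
Log2 CPM difference, tdT positive minus tdT negative, within each replicate number (colours) for 6 members and for the median of the macrophage and of the fibroblast and mural markers. Igf1, Igf2r and Igfbp4 lie between -0.42 and 0.42, as does the median of the macrophage markers. Igfbp5 is at -4.78 in number 4 beside the fibroblast and mural median of -4.45. In numbers 1 and 3 it is at -0.39 and -1.85, against fibroblast and mural medians of -1.72 and -3.39. Igf1r and Igfbp7 lie between the medians of the marker lists in every number, as Igfbp5 does in numbers 1, 2 and 3.

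Counts of the members were also set relative to those of the fibroblast and mural markers. Igfbp3 had 0 to 1.01 counts per 1000 counts of the 15 fibroblast and mural markers in tdT-positive libraries, where at most 3 counts were seen in a library, and 0.372 to 0.613 in tdT-negative libraries, although the marker sum itself ranged from 294 to 2620 CPM there. For Igfbp5 the ratio was 17.0, 7.57, 19.1 and 38.1 in tdT-positive libraries 1 to 4, against 6.78, 7.48, 7.53 and 48.6 in tdT-negative libraries 1 to 4. The ratio of Igfbp5 was thus nearly constant in tdT-negative replicates 1 to 3 and highest in replicate 4 in both groups. Igfbp7 had 47.2 to 168 counts per 1000 in tdT-positive and 17.5 to 38.0 in tdT-negative libraries. Igf1r had 17.2 to 50.0 in tdT-positive and 3.73 to 12.0 in tdT-negative libraries. For both the ratio was higher in every tdT-positive library than in any tdT-negative one, as it was for Igf1, Igf2r and Igfbp4. The marker sum was itself lower in every tdT-positive library, so a member that fell less than the markers has a higher ratio there. This does not set Igf1r and Igfbp7 apart. Igf1 had 551 to 1190 counts per 1000 in tdT-positive and 35.5 to 397 in tdT-negative libraries, while its own level spanned 82.2 to 117 CPM over all 8 libraries. The part of fibroblast, mural, osteoclast or other cells in the levels of Igf1r, Igfbp3, Igfbp5 and Igfbp7 was not tested.

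**Figure D4:**
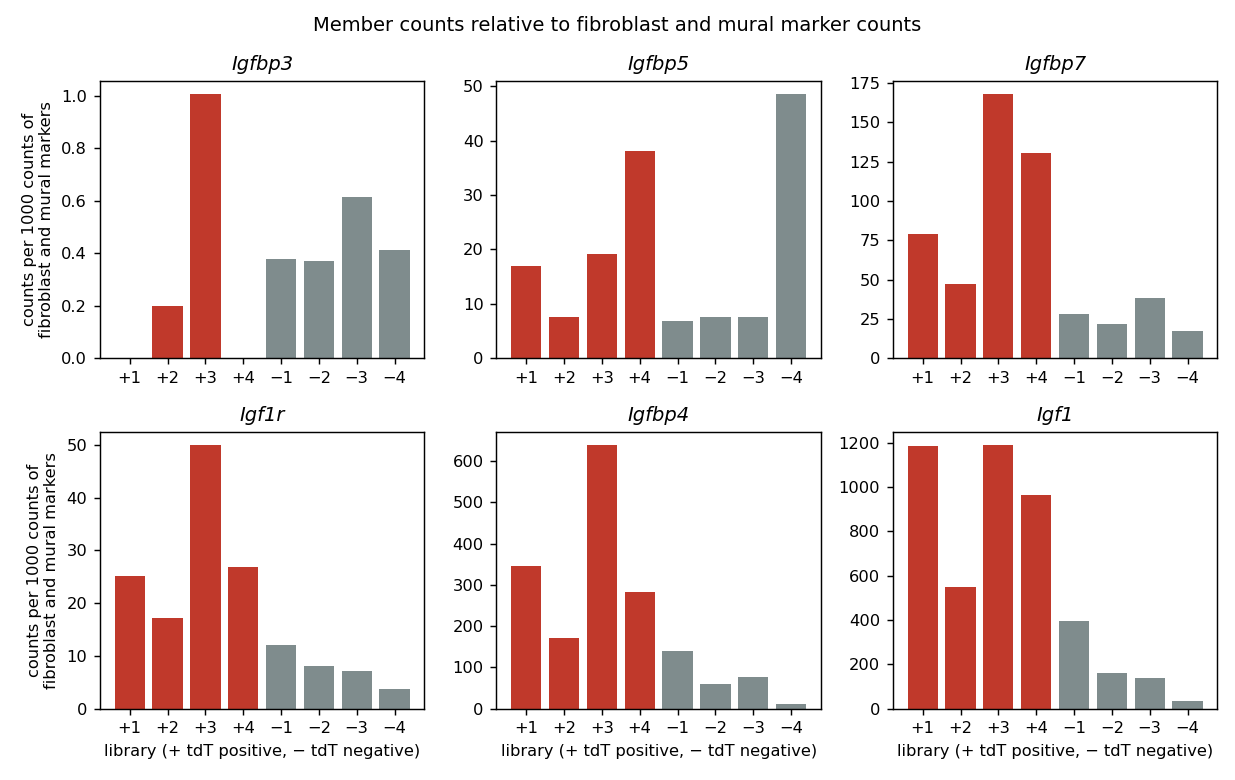
Counts of 6 members per 1000 counts of fibroblast and mural markers in each library, tdT positive (red, +) left of tdT negative (grey, −). Igfbp3 has 0.372 to 0.613 in the 4 tdT-negative libraries, Igfbp5 has 6.78 to 7.53 in tdT-negative replicates 1 to 3 and 48.6 in replicate 4, and the other 4 members have higher ratios in every tdT-positive library than in any tdT-negative one.

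In the blocked edgeR fit 13 of the 14 fibroblast and mural markers fell, with a median log2 fold change of -2.93, and Dcn, a proteoglycan gene of fibroblasts, did not pass (-0.12). Of 8 osteoblast and marrow stroma markers 3 were tested and Cxcl12, the stromal chemokine gene, fell by 3.24; the list summed to 3.20 to 4.01 CPM in tdT-positive and 5.92 to 28.1 CPM in tdT-negative libraries. Of the 7 osteoclast markers tested 4 fell, and of the 5 granulocyte markers 4 fell. Granulocyte markers, unlike the stromal ones, had their lowest tdT-negative sum in replicate 4, at 14.4 CPM against 139 to 274 CPM in the other 3 libraries. None of the 4 endothelial or 3 adipocyte markers tested passed, and no lymphoid marker was tested. The endothelial genes Tek, Emcn and Robo4 had 1 to 3 counts over all 8 libraries, and the adipocyte gene Plin1 had 1; these genes and Dcn were chosen after their values were seen. Among the 12 macrophage markers 2 rose and none fell, against 8.03% and 7.81% of all genes. Mertk, a receptor gene for the uptake of dying cells, rose by 0.73. Over the lists other than macrophage, 22 of 36 markers tested were called, all lower, or 61.1%, against 7.81% of all genes called lower. Some of these markers were scarce in tdT-positive libraries, where the 8 granulocyte markers summed to 3.18 to 6.81 CPM. For a marker that passed the filter on low counts only through the tdT-negative libraries, a fall was the likely call. How many did so is not given here, so this share is a description. Without numbers 1, 2, 3 and 4, 19, 9, 2 and 25 markers were called lower. Of all genes 604, 253, 126 and 1304 were called lower in the same fits.

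The rest of the pathway was described from 5 lists of 62 genes, of which 51 were tested. None was called without the block by edgeR, with 12 of 51 at an unadjusted p under 0.05. limma voom called none, and DESeq2 called 10, where it called 7.30% of all genes. With the block 6 rose and 9 fell, or 11.8% and 17.6% of those tested, against 8.03% and 7.81% of all genes. Without numbers 1, 2, 3 and 4, 4, 0, 2 and 9 were higher and 9, 4, 2 and 10 lower. Grb14, Pappa and Ghr, named below, would not have passed the filter on low counts by their tdT-positive libraries alone. As they entered through the tdT-negative libraries, a fall was the likely call, and theirs are given as a description. The values below are from the blocked fit, so the counts in each list are to be read against the same 8.03% and 7.81% of all genes.

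Of 7 genes tested in the list of binding protein proteases and their inhibitors, 5 fell, namely 4 of 6 enzymes, which free IGFs from binding proteins, and 1 inhibitor gene. The median log2 fold change of the list was -1.93. Pappa, the protease that cleaves IGFBP4, stood at 0.230, 0.516, 0.116 and 0.310 CPM in tdT-positive libraries 1 to 4, against 0.614, 1.66, 1.24 and 8.02 CPM in tdT-negative libraries 1 to 4, and fell by 2.83 (SE 0.56, edgeR adjusted p = 0.0196). Stc2, whose product inhibits that protease, fell by 1.91 as well (SE 0.32), so that both the enzyme and its inhibitor were lower. Adam12, a protease of IGFBP3 and IGFBP5, fell by 3.03 (SE 0.39), Adamts1 by 1.97 and Htra1, a protease of IGFBP5, by 1.93. All 5 were highest in tdT-negative replicate 4, as were Igfbp3, Igfbp5 and Igfbp7. Adam9, which also cleaves IGFBP5, was the most abundant of the list and near-equal, with a mean of 258 ± 27.4 CPM over tdT-positive and 252 ± 20.5 CPM over tdT-negative libraries (SD, n = 4). Adamts1 and Stc2 overlapped between the groups.

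Of 21 signalling genes tested downstream of the receptors, 3 rose and 2 fell. Irs2, the adaptor that links IGF1R and the insulin receptor to phosphoinositide 3-kinase, stood at 8.55, 8.78, 9.14 and 13.3 CPM in tdT-positive libraries 1 to 4, against 6.22, 4.80, 6.34 and 7.65 CPM in tdT-negative libraries 1 to 4, without overlap, and rose by 0.66 (SE 0.10, edgeR adjusted p = 0.0113). Gab1, another docking protein gene, rose by 0.55, and Foxo3, a transcription factor restrained by AKT, by 0.44; Foxo3 was named after its values were seen, as was Htra1 above. Grb10 and Grb14, adaptors that bind the insulin and IGF1 receptors and dampen them, fell by 3.34 (SE 0.45) and 4.02 (SE 0.51). Grb10 averaged 0.555 ± 0.214 CPM over tdT-positive and 6.77 ± 5.55 CPM over tdT-negative libraries (SD, n = 4), and Grb14 had 9 counts in all tdT-positive and 173 in all tdT-negative libraries. Akt1, Akt2, Pdpk1 and the 5 phosphoinositide 3-kinase subunit genes had log2 fold changes between -0.14 and 0.14 in both fits and did not pass. Ptpn1, the phosphatase of the insulin receptor and the most abundant gene of the list, did not pass either (0.15). Irs1 was scarce, with 9 counts in the tdT-positive and 50 in the tdT-negative group, and was not tested.

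Among further ligands, receptors and carriers 1 of 6 tested rose. Lrp1, an endocytic receptor that also binds IGFBP3, averaged 1603 ± 379 CPM over tdT-positive and 1214 ± 364 CPM over tdT-negative libraries (SD, n = 4) and rose by 0.43 (SE 0.09, edgeR adjusted p = 0.0259). Tmem219, another IGFBP3 receptor gene, was near-equal, with means of 87.9 CPM over tdT-positive and 96.5 CPM over tdT-negative libraries, and Igfals, which encodes the acid-labile subunit of the serum complex, had 1 count in the tdT-positive and 0 in the tdT-negative group. Of 11 mannose 6-phosphate sorting genes, which work with Igf2r on lysosomal enzymes, Gga3, a clathrin adaptor gene, rose by 0.26 and the others did not pass. M6pr, the cation-dependent partner of Igf2r, averaged 679 ± 19.0 CPM over tdT-positive and 751 ± 71.4 CPM over tdT-negative libraries (SD, n = 4). Of the 6 genes of the growth hormone axis, the receptor gene Ghr fell by 3.47 (SE 0.65), being at 0.0928 to 0.430 CPM in tdT-positive and 0.652 to 9.90 CPM in tdT-negative libraries. Socs2, a feedback inhibitor gene, fell by 1.40, Stat5a rose by 0.29, and Jak2, the most abundant, with means of 578 CPM over tdT-positive and 551 CPM over tdT-negative libraries, did not pass.

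**Figure D5:**
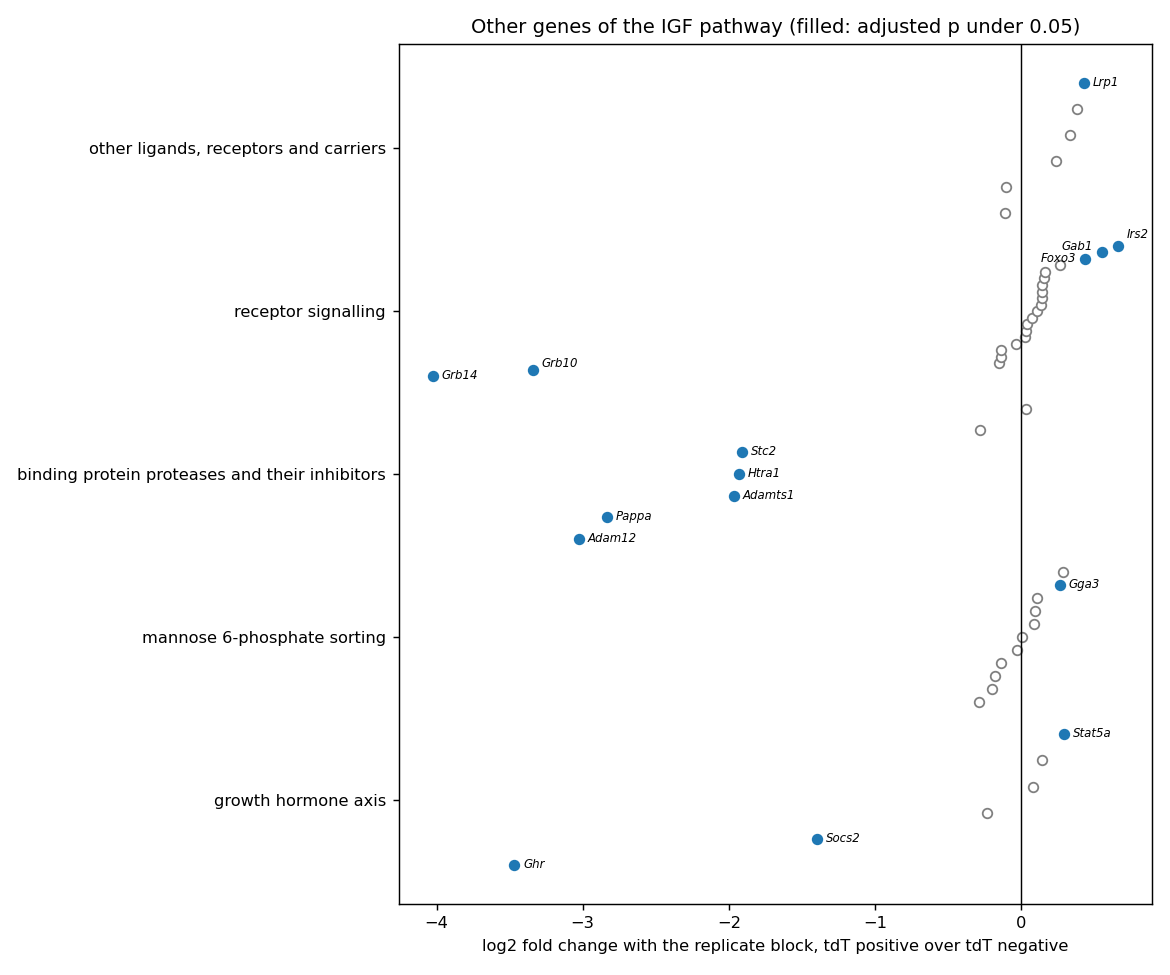
Log2 fold change with the replicate block, tdT positive over tdT negative, of each tested gene of 5 pathway lists, filled and named where the adjusted p was under 0.05. The named genes on the left are lower in the tdT-positive libraries, by 1.40 to 4.02, and those on the right higher, by 0.26 to 0.66.

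Genes with the most similar profiles were found by the root mean square difference of log2 CPM over the 8 libraries after centring, among 9195 genes whose log2 CPM averaged 2 or more, and are given as a description. The nearest to Igf1 were Hbp1 (0.052), Trmt44 (0.064) and Dpcd (0.067), where Igf1 itself varied by 0.17 around its mean on the same measure. Nearest to Igf2r were Ano6, Tcof1 and 5031439G07Rik (0.090 to 0.094), and to Igfbp4 Iah1, Smim7 and Mpc2 (0.062 to 0.078). Nearest to Igf1r were Tmem263 (0.12), Clstn1 (0.13) and Ckap4 (0.16), against its own variation of 0.59. Nearest to Igfbp7 were Susd2 (0.18), Rbfox2 (0.26) and Pmepa1 (0.28), against its own variation of 0.85. Of these 15 genes Tmem263, Clstn1, Susd2 and Rbfox2 fell in the blocked fit, where 7.81% of all genes were called lower. The others did not pass. All 15 were chosen in these same libraries for their likeness to the members, so these calls follow from that choice.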

How the data were processed

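Whole-number counts per gene, deposited by the authors with gene lengths for 17823 genes, were used as given. The submitters' processing notes name STAR and mm10, and no source used here names the counting tool, its annotation or its use of strand; the libraries were made with a stranded mRNA kit per the labels' protocols. Groups and replicate numbers came from sample titles, and columns from the identifier in each description. No library repeated another (chi-square per degree of freedom 54.0 to 759 within groups).

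Genes were filtered with edgeR 4.0.16 defaults (minimum count 10, minimum total 15), scaled by TMM and compared with the quasi-likelihood test, with Benjamini-Hochberg adjustment over all 12610 genes tested, in R 4.3.3; SE is the log2 fold change over the root of F. The script was tested on simulated data. Deviations from group means correlated between same-numbered libraries by 0.63, 0.28, 0.62 and 0.56, all above 0.1, so the numbers, shared in the titles, were taken to pair the samples. Log2 CPM used a prior count of 2. Alternatives were other scalings and filters, DESeq2 1.42.0, limma 3.58.1, other thresholds and left-out libraries. All members are named, with the most abundant and up to 4 called genes of each list and the 3 genes of most similar profile for Igf1, both receptors and the 2 binding proteins highest per kilobase. Some genes that this rule names are not reported here. The members and lists were chosen with earlier results of these data known. Sequences are from the RefSeq table of GRCm38.p6 and gene positions from GENCODE M21 (GRCm38, the build of mm10); all 9 members matched.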

Additional observations from a re-analysis of the deposited data

Results flagged for a closer look

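The quantities examined in each group were members with at least 10 counts in a group and the sums of 8 marker lists. Of 31 group and quantity combinations, 4 had a library far from the other 3 of its group. The gap relative to the range lay above Dixon's 95% limit. Chance gives about 1 in 20 only for independent values with a normal spread. CPM were not checked for that, and tdT-negative replicate 4 recurs below, so 1 in 20 is no yardstick here. Igfbp5 was at 4.59 CPM in tdT-positive replicate 4, where the next highest library of that group had 1.52 CPM. Igfbp5 was at 127 CPM in tdT-negative replicate 4, and the next highest library of that group had 4.86 CPM. The summed fibroblast and mural markers were at 2620 CPM in tdT-negative replicate 4, and the next highest library of that group had 646 CPM. The summed osteoclast markers were at 1401 CPM in tdT-negative replicate 4, and the next highest library of that group had 158 CPM.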

How the results depend on the processing

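Without the block 1 gene was called higher and 2 lower. Other settings without the block gave, higher and lower, 327 and 594 (DESeq2), 32 and 184 (no filter) and 154 and 370 (threshold 0.1), with 1 lower for library totals, the stricter filter and threshold 0.01, and 1 to 62 and 1 to 394 with a library left out. The replicate block gave 1013 and 985; with it, DESeq2 size factors gave 983 and 1007, library totals 422 and 996, no filter 1072 and 1266, the DESeq2 test 1255 and 1249, limma voom 1049 and 1095, removal of Rn45s and Lars2 1016 and 989, and leaving out numbers 1, 2, 3 and 4 419, 94, 229 and 1231 and 604, 253, 126 and 1304. Of the members, 0 were called in either direction without the block and 0 higher in any setting; the block called 2 lower, as with size factors or without Rn45s and Lars2, library totals, DESeq2 and limma voom with the block 3, no filter with the block 4, and left-out libraries 0 to 1 without and 0 to 4 with it. Pathway genes called, 0 without the block, were 3 higher and 7 lower (DESeq2), 0 and 2 (no filter) and 1 and 5 (threshold 0.1), and with the block 6 and 9, the same for size factors and without Rn45s and Lars2, 4 and 9 (library totals), 6 and 11 (no filter), 8 and 10 (DESeq2), 7 and 9 (limma voom), with 0 to 9 and 0 to 10 over left-out libraries. Markers called lower, 0 without the block, were 19 (DESeq2), 12 (no filter) and 16 (threshold 0.1), and with the block 22, as for library totals and without Rn45s and Lars2, 23 (size factors, DESeq2), 27 (no filter) and 26 (limma voom, 1 higher), with 0 to 25 over left-out libraries. The log2 fold change of Igf1 changed sign with no filter (0.0017) and with the block without numbers 1, 2 and 3 (0.038, 0.015 and 0.015), and ranged from -0.089 to 0.080 with a library left out; that of Igf2r changed sign with the block without number 3 (-0.020). Igf1r, Igfbp4, Igfbp5 and Igfbp7 were below 0 in all 28 alternatives, from -1.12 to -0.57, -0.36 to -0.12, -4.67 to -0.83 and -1.40 to -0.55. The cause of these changes was not tested. Leaving tdT-negative replicate 4 out of the summed-count ratios of Igfbp3 and Igfbp6 was chosen after seeing the data; that of Igfbp6 was then 0.686. Igfbp2, Igfbp3 and Igfbp6 rest on at most 106 counts a group.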
